A study of Mus musculus with 15 samples.

Results

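Normal islet alpha cells were compared with normal islet beta cells in 10 of the 15 mouse arrays of the series, 5 with titles that name alpha cells and 5 with titles that name beta cells. All clusters that the array annotation ties to 1 gene symbol were used. The 5 Pdx1-deficient arrays, taken 5 days after tamoxifen, entered only the shared estimate of the spread. RNA was read on Affymetrix Mouse Gene 1.0 ST arrays, and values are log2 signals per transcript cluster, a set of probes along 1 transcript.

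Both groups came from mice 2 months old on a mixed B6 and BALB/C background, and islet cells positive for a YFP reporter were collected by FACS. By their labels, the beta arrays carried glucagon-Cre with RosaYFP. The alpha arrays carried RIP-CreER with Pdx1fl/+ and RosaYFP, so by these labels a heterozygous floxed Pdx1 allele belongs to the alpha group alone. Glucagon-Cre is usually active in alpha cells and RIP-CreER in beta cells, the reverse of this pairing. Groups here follow the titles. Whether titles or genotype labels were exchanged was not tested. Tamoxifen treatment of these 2 groups is not given in the sources used here. The labels do not tie arrays to separate animals, so all p-values describe only how far these samples spread, and that spread may be technical.

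Beta cells make insulin and release it when glucose rises. Glucose enters mouse beta cells through the Slc2a2 transporter, its metabolism closes potassium channels and opens calcium channels, and granules fuse with the membrane. Alpha cells make glucagon, which raises blood glucose, and release it when glucose is low and in response to amino acids. Both cells arise from shared endocrine progenitors. Pdx1, Nkx6-1 and Mafa are factors of the beta cell, and Irx1, Irx2 and Pou3f4 are on the alpha side. Ins1, Gc and Pcsk2 were not analysed here.

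The array labelled alpha replicate 2 stood apart from its group. Over all clusters its mean correlation was 0.965 with the other alpha arrays and 0.974 with the beta arrays, and every other alpha or beta array was closer to its own group. Its closest array in the series was Pdx1-deficient replicate 3, with r = 0.986. The closest arrays of alpha replicates 1 and 4 were also Pdx1-deficient ones, replicates 1 and 3, with r = 0.968 and 0.977. Alpha replicate 2 correlated with Pdx1-deficient replicates 2 and 3 at 0.984 to 0.986. Pdx1-deficient replicates 2 and 3 correlated at 0.986 with each other, and the other 4 alpha arrays correlated with them at 0.961 to 0.977. Its position was also measured over the 1436 clusters that differed between the groups when it was left out. On a scale with the beta mean at 0 and the alpha mean at 1, its median position was 0.34, against 0.92 to 1.12 for the other alpha arrays and -0.08 to 0.31 for the beta arrays, each left out of its own fit in turn. Of the 416 clusters higher in the other alpha arrays, 52.4% lay inside the beta range in this array and 14.2% inside the alpha range. Of the 1020 lower ones, 38.9% lay inside the beta range and 25.4% inside the alpha range.

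**Figure D1:**
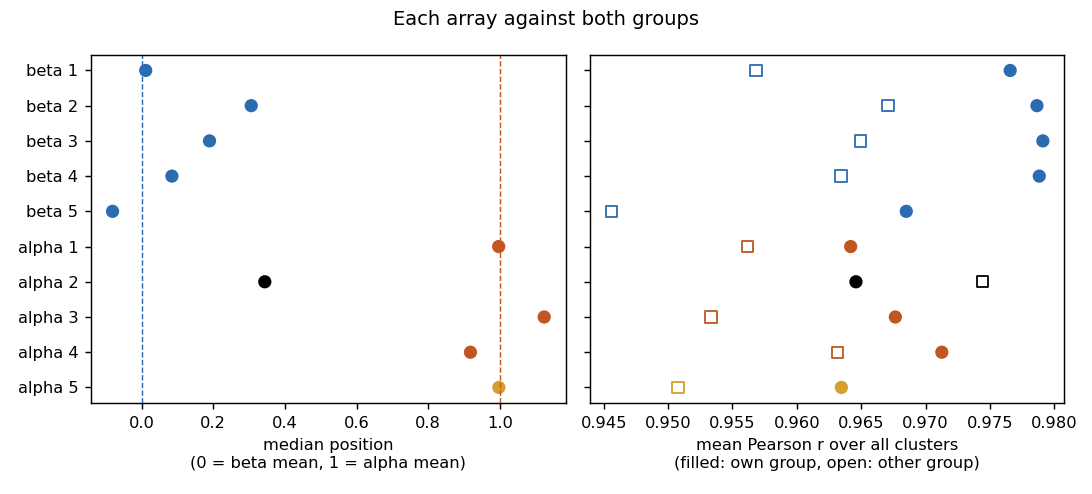
Left, median position (no unit) of each array between the beta mean (0, dashed blue line) and the alpha mean (1, dashed orange line), over the clusters that differed when that array was left out. Right, mean Pearson r over all clusters with the own group (filled) and the other group (open). The array labelled alpha replicate 2 (black) lies at 0.34 and is the only one with the open square to the right of its filled point.

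Single genes put this array on either side. It was with the alpha arrays, and with Pdx1-deficient replicates 2 and 3, for Ucn3 (9.12, where those 2 arrays read 9.34 and 8.65), Pdx1 (7.98 against 7.83 and 7.68) and Slc2a2 (7.85 against 7.94 and 7.52). It was in or near the beta range for Pcsk1 (11.07, beta arrays 10.92 to 11.33), Irx1 (5.61, beta arrays 5.64 to 5.92) and Mctp2 (4.68, beta arrays 3.89 to 4.36), and Pdx1-deficient replicates 2 and 3 read 10.9 and 10.8, 5.92 and 5.80, and 4.33 and 5.19 for these genes. For Ndst4 it lay between the groups at 6.50, beside 5.73 and 6.52. Whether this array holds another cell population than its title says was not tested. Results are given with it, as the titles have it, and the counts of gene lists also without it where they differ. Pdx1-deficient replicate 1 also went against its title. It read 9.12 for Pdx1, inside the beta range, and 10.9 for Ucn3 and 10.5 for Slc2a2, just below and just above the beta ranges. It enters only the estimate of the spread, and the fit was repeated without it and alpha replicate 2.

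The acinar genes, which encode the digestive enzymes of the exocrine pancreas, set alpha replicate 5 apart. The mean log2 signal of 26 acinar genes was 5.69, 6.64, 5.77, 5.58 and 10.61 in alpha replicates 1 to 5 and 5.54, 5.86, 5.54, 6.35 and 5.85 in beta replicates 1 to 5. In RNA of many sorted cells, more cells of a type and more RNA per cell cannot be told apart. Results were therefore repeated without alpha replicates 2 and 5 together. Both groups mixed sexes. Xist read 9.23, 4.93, 4.55, 4.46 and 4.27 in beta replicates 1 to 5 and 8.53, 4.49, 4.75, 10.54 and 10.57 in alpha replicates 1 to 5, and alpha replicate 1 held Y-linked signal as well (Eif2s3y 7.03).

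Of 21789 clusters, 806 passed an adjusted p of 0.05 (limma, Benjamini-Hochberg over all clusters), or 3.7%, and 4416 had an unadjusted p under 0.05. In alpha cells 185 were higher (0.849% of clusters) and 621 lower (2.85%), and 68 and 207 of them differed at least 2-fold. The median difference over all clusters was 0.04 on the log2 scale. With dim clusters removed it was -0.08 over 10894 clusters, of which 833 passed as lower and 163 as higher. When the values were quantile normalized again, 481 passed, 191 higher and 290 lower, so the higher share moved from 23.0% to 39.7%. Counts and medians of the gene lists below are from the values as deposited and are not given after this step. Alpha and beta arrays did not overlap for 1367 clusters (6.27%).

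Leaving out the array labelled alpha replicate 2 raised the count to 1436 (6.59%), with 416 higher (1.91%) and 1020 lower (4.68%). Without alpha replicates 2 and 5, 1116 passed (5.12%), 358 higher (1.64%) and 758 lower (3.48%), and 631 of them were among the 806. The count was 417, 277, 412 and 392 without alpha replicates 1, 3, 4 and 5, and 385, 645, 530, 388 and 400 without beta replicates 1 to 5. In all, 242 clusters passed in the full fit and in each of these 10 leave-one-out fits, 50 higher and 192 lower in alpha. Where a gene named as higher or lower passed in fewer than 10 of these fits, that number is given with it. For gene lists, counts from these fits are given where they differ from the full count by more than 1.5 times. All lists were drawn up with earlier results of these data known, so their counts are descriptions. All 806 kept their sign in every setting that tested them. They were picked for passing in the full fit, and settings such as changed moderation cannot alter the difference itself, so this is a description.

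The hormone genes separated the groups little. Gcg, which encodes glucagon, read 12.51, 12.19, 12.43, 12.15 and 12.49 in beta replicates 1 to 5 and 12.74, 12.49, 12.87, 12.87 and 12.74 in alpha replicates 1 to 5. The groups overlapped in alpha replicate 2, and the difference of 0.39 (SE 0.11, limma adjusted p = 0.066) did not pass, though it did without alpha replicate 2 (0.45, limma adjusted p = 0.0265) and without replicates 2 and 5 (0.47, 0.0452). Ins2, an insulin gene, read 11.77 to 11.98 in beta and 11.86 to 12.09 in alpha arrays and differed by 0.10 (SE 0.07, limma adjusted p = 0.452). Iapp, which encodes the amyloid peptide released with insulin, read 12.28, 12.32, 12.36, 12.25 and 12.47 in beta and 12.12, 12.12, 11.99, 12.14 and 11.65 in alpha arrays. Its groups did not overlap, yet its difference of -0.33 (SE 0.11, limma adjusted p = 0.113) did not pass. Ttr, the transthyretin gene, differed by 0.23 (SE 0.09, limma adjusted p = 0.17). Sst, the somatostatin gene, and Ppy, the pancreatic polypeptide gene, differed by 0.06 (limma adjusted p = 0.933) and 0.09 (limma adjusted p = 0.754). All these clusters read above 11 in every array, where the highest value of any cluster was 13.45. Over 15 measured hormone and peptide genes, 0 were higher and 1 lower in alpha cells, beside 0.849% and 2.85% of all clusters. The list median was 0.10. Without alpha replicate 2 there was 1 higher, and the lower count was 0 without alpha replicate 3 or 5 or beta replicate 5.

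Ucn3, the urocortin 3 peptide that marks mature mouse beta cells, was that 1 gene. It read 10.95, 11.13, 11.05, 11.00 and 11.51 in beta replicates 1 to 5 and 9.39, 9.12, 8.06, 9.29 and 8.41 in alpha replicates 1 to 5, and all alpha arrays lay below all beta arrays. The difference was -2.27 (SE 0.49, limma adjusted p = 0.0221), a 4.83-fold lower level, with 7 of 10 leave-one-out fits past the threshold and a highest adjusted p of 0.0625 without alpha replicate 3. Without alpha replicates 2 and 5 it was -2.21 (limma adjusted p = 0.0514).

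Among the beta-cell factors, Pdx1 read 8.85, 9.33, 9.26, 9.02 and 9.26 in beta replicates 1 to 5 and 8.15, 7.98, 8.21, 7.70 and 7.27 in alpha replicates 1 to 5. The groups did not overlap, but the difference of -1.28 (SE 0.34, limma adjusted p = 0.0502) missed the threshold. Without alpha replicates 2 and 5 it was -1.12 (limma adjusted p = 0.126). By the labels the floxed Pdx1 allele was in the alpha group alone. Its part in this difference and that of cell type cannot be told apart. Nkx6-1, a repressor of alpha-cell genes in beta cells, read 7.17, 7.68, 8.12, 7.71 and 7.99 in beta and 6.79, 6.64, 6.80, 6.66 and 6.42 in alpha arrays, again without overlap. It was lower in alpha, with a difference of -1.07 (SE 0.26, limma adjusted p = 0.0349), a call that held in 2 of 10 leave-one-out fits and not without replicates 2 and 5 (limma adjusted p = 0.0916). Mafa, an activator of insulin genes, did not pass (-0.14, limma adjusted p = 0.454). Glis3, which acts on insulin genes, was lower, with a difference of -0.53 (SE 0.14, limma adjusted p = 0.0467), and passed in 3 of 10 leave-one-out fits. Of 16 factors on the beta-cell list, 3 were lower and 1 higher, where 2.85% of all clusters were lower and 0.849% higher. The lower ones were Etv5, Nkx6-1 and Glis3, the higher one was Nr4a2, and the list median was -0.17. The lower count was 4 without alpha replicate 2, and it was 1 without alpha replicate 3, 4 or 5 or beta replicate 2, 4 or 5.

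Etv5 and Etv1, related ETS factors that follow MAP kinase signals, went opposite ways. Etv5 read 8.77, 8.76, 8.64, 9.06 and 8.90 in beta replicates 1 to 5 and 5.95, 8.50, 5.27, 6.18 and 6.31 in alpha replicates 1 to 5, a difference of -2.38 (SE 0.43, limma adjusted p = 0.0105). Alpha replicate 2 was close to the beta arrays, and without it and replicate 5 the difference was -3.03 (limma adjusted p = 9e-05). Etv1 read 8.21, 9.11, 9.06, 8.88 and 8.10 in beta and 10.45, 9.21, 10.86, 10.49 and 10.68 in alpha arrays, a difference of 1.66 (SE 0.32, limma adjusted p = 0.0127). Alpha replicate 2 was again the alpha array nearest to beta. Both genes passed in all 10 leave-one-out fits, and a second cluster of each passed in the same direction.

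On the alpha side, Irx2 was higher by 0.63 (SE 0.15, limma adjusted p = 0.0345), with 7.04, 6.85, 6.72, 6.88 and 7.02 in beta and 7.76, 6.93, 8.02, 7.45 and 7.52 in alpha arrays. Alpha replicate 2 lay within the beta range, and the call held in 1 of 10 leave-one-out fits, the one without it (limma adjusted p = 0.00129). Irx1 did not pass (0.42, limma adjusted p = 0.119) and did without alpha replicates 2 and 5 (0.54, limma adjusted p = 0.0161). Pou3f4 read 6.13, 4.76, 5.17, 5.13 and 5.14 in alpha arrays, with only alpha replicate 1 clearly above the beta range of 4.77 to 5.03 (difference 0.32, limma adjusted p = 0.334). Of 11 genes on the alpha-cell factor list, 4 were higher and 0 lower, where 0.849% of all clusters were higher and 2.85% lower. The list median was 0.32. Its higher members were Irx2, Etv1, Smarca1, a chromatin remodelling ATPase, and Peg10, an imprinted gene of retrotransposon origin. The last is no transcription factor of the usual kind. The higher count was 5 without alpha replicate 2, and it was 2 without alpha replicate 3, 4 or 5 or beta replicate 1, 2, 3, 4 or 5. Without alpha replicate 1, 1 was lower. Of 17 factors shared by both cells, 1, the zinc-finger factor Myt1, was higher (0.62, limma adjusted p = 0.049), past the threshold in 1 of 10 leave-one-out fits. Alpha replicate 5 alone lay in its beta range, at 7.85.

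**Figure D2:**
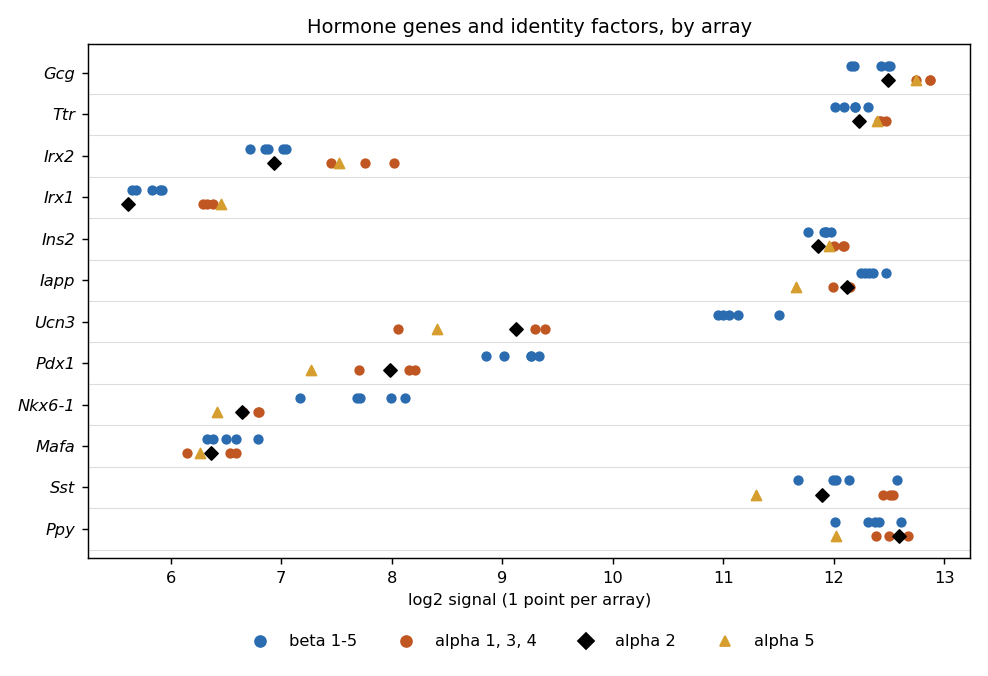
Log2 signal of hormone genes and identity factors, 1 point per array (blue, beta 1 to 5; orange, alpha 1, 3 and 4; black, the array labelled alpha 2; yellow, alpha 5). Ucn3, Pdx1, Nkx6-1 and Iapp show no overlap between the groups, and Gcg, Ins2, Sst and Ppy lie near the right edge in both.

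The largest differences lay in other genes. Ndst4 encodes a sulfotransferase that builds heparan sulfate chains. It read 4.24, 4.44, 4.68, 4.84 and 4.37 in beta replicates 1 to 5 and 8.27, 6.50, 8.49, 8.55 and 8.79 in alpha replicates 1 to 5, with every alpha array above every beta array. The difference was 3.61 (SE 0.36, limma adjusted p = 0.000697), a 12.2-fold higher level, and 3.92 without alpha replicates 2 and 5. Mctp2, a membrane protein with C2 domains of the kind that binds calcium, read 4.28, 4.15, 4.36, 3.89 and 3.99 in beta and 7.07, 4.68, 7.56, 7.82 and 7.59 in alpha arrays. It differed by 2.81 (SE 0.50, limma adjusted p = 0.00934). Galnt13, which starts mucin-type glycans, read 4.30, 4.56, 4.56, 4.42 and 4.40 in beta and 7.20, 4.80, 7.46, 8.24 and 8.26 in alpha arrays and differed by 2.75 (SE 0.50, limma adjusted p = 0.0105). For Ndst4, Mctp2 and Galnt13 the array labelled alpha replicate 2 was the lowest alpha array, by more than 1 log2 unit each time, and the calls held in all 10 leave-one-out fits.

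Ptprd, a receptor tyrosine phosphatase of the cell surface, was the higher gene with the smallest adjusted p. It read 6.80, 7.46, 7.50, 7.21 and 6.98 in beta replicates 1 to 5 and 9.24, 8.98, 9.72, 10.29 and 9.33 in alpha replicates 1 to 5, a difference of 2.32 (SE 0.22, limma adjusted p = 0.000615). Here alpha replicate 2 was within 0.3 of the next alpha array. Wnk3, a kinase of ion transport, read 7.72, 8.23, 8.52, 8.23 and 6.58 in beta and 10.35, 8.68, 10.53, 10.71 and 10.82 in alpha arrays and differed by 2.36 (SE 0.41, limma adjusted p = 0.00856). Rnd3, an atypical small GTPase, differed by 2.07 (SE 0.30, limma adjusted p = 0.00394), Smarca1 by 2.02 (SE 0.35, limma adjusted p = 0.00856) and Rab3c, a small GTPase of secretory vesicles, by 2.01 (SE 0.39, limma adjusted p = 0.0135). Dbpht2 was higher by 1.75 (SE 0.31, limma adjusted p = 0.00956), and alpha replicate 2 was its highest alpha array at 11.83. These 6 genes passed in every leave-one-out fit. Peg10 differed by 2.92 (SE 0.66, limma adjusted p = 0.0277), with 8.85, 6.82, 10.33, 10.60 and 10.12 in alpha arrays and 6.24 to 6.79 in beta arrays, and passed in 2 of 10 leave-one-out fits, with a highest adjusted p of 0.0763 without alpha replicate 3.

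The 26 measured genes of the alpha-cell identity list had 11 members higher, 0 lower and a median of 0.67, beside 0.849% of all clusters higher and the median of 0.04. Members of this list were chosen with earlier results of these data known, so the count is no independent support for alpha identity. Besides Ndst4, Mctp2, Galnt13, Wnk3, Smarca1, Etv1, Irx2 and Peg10 these were Gria3, Zim1 and Slc7a2. The count was 15 without alpha replicate 2. Without alpha replicates 2 and 5, 15 were higher, with a median of 0.76. The mean of the list was 6.98, 7.01, 7.14, 6.98 and 7.02 in beta replicates 1 to 5 and 8.04, 7.41, 8.32, 8.36 and 8.20 in alpha replicates 1 to 5. The groups did not overlap, and alpha replicate 2 was the lowest alpha array.

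**Figure D3:**
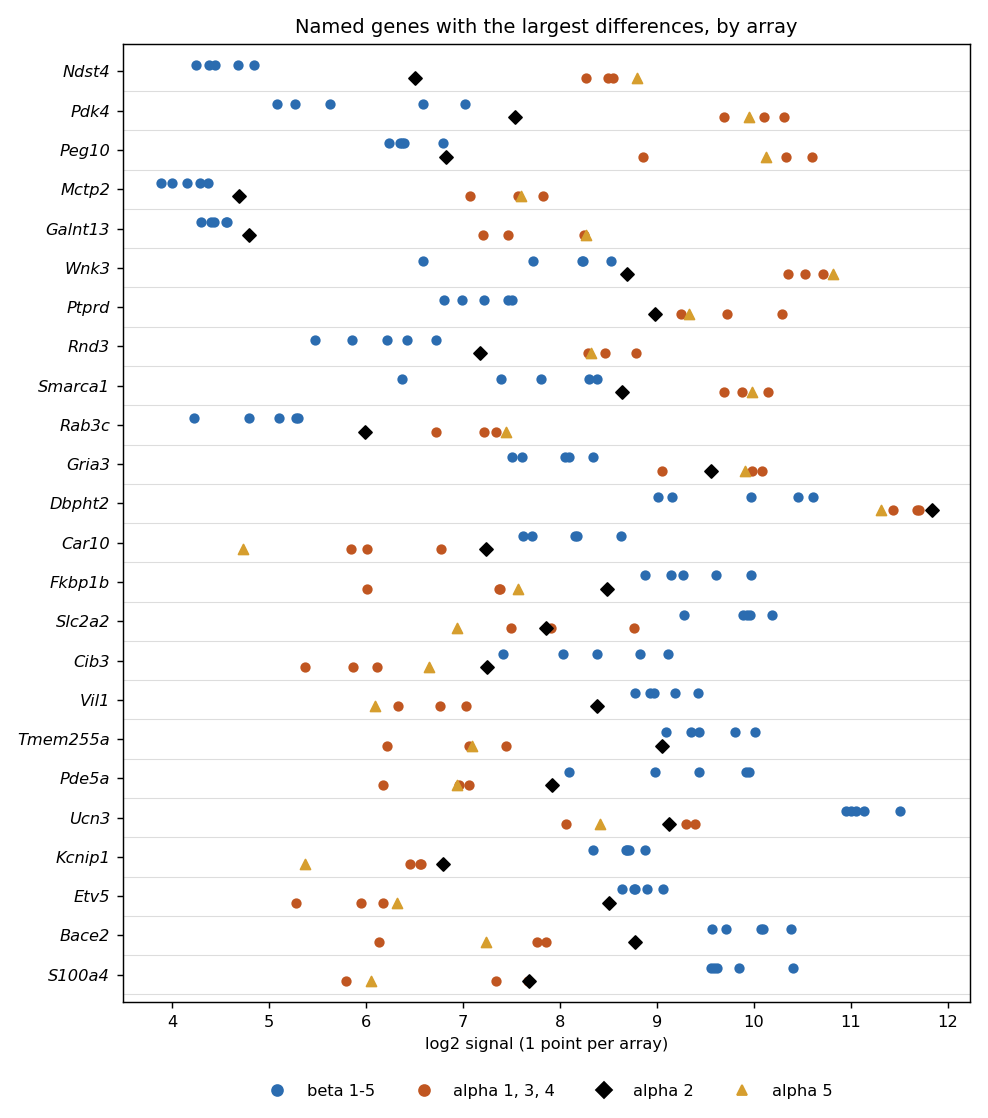
Log2 signal of the 12 genes that rose most and the 12 that fell most in alpha against beta cells among clusters past the threshold whose groups do not overlap, 1 point per array, colours as in the plot of hormone genes. The array labelled alpha 2 (black) often lies between the other alpha arrays and the beta arrays, as for Ndst4 and Etv5, and among or next to the alpha arrays for Ptprd, Gria3, Ucn3, Slc2a2 and Kcnip1.

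Genes higher in beta cells were led by S100a4, a small calcium-binding protein. It read 9.84, 9.58, 9.62, 9.55 and 10.40 in beta replicates 1 to 5 and 7.34, 7.67, 5.79, 7.67 and 6.05 in alpha replicates 1 to 5, all alpha arrays below all beta arrays. The difference was -2.90 (SE 0.46, limma adjusted p = 0.00608), a 7.44-fold lower level in alpha. Bace2, a membrane protease of beta cells, read 10.10, 9.56, 9.71, 10.07 and 10.38 in beta and 7.85, 8.77, 6.13, 7.76 and 7.23 in alpha arrays, a difference of -2.42 (SE 0.37, limma adjusted p = 0.0056). Kcnip1, a calcium-binding partner of voltage-gated potassium channels, read 8.71, 8.68, 8.69, 8.88 and 8.34 in beta and 6.56, 6.79, 6.56, 6.46 and 5.37 in alpha arrays, a difference of -2.31 (SE 0.34, limma adjusted p = 0.00412). Alpha replicate 5 was its lowest array. Vil1, the actin bundler villin, differed by -2.13 (SE 0.34, limma adjusted p = 0.00619), Tmem255a by -2.16 (SE 0.41, limma adjusted p = 0.0119) and Cib3, a calcium- and integrin-binding protein, by -2.11 (SE 0.37, limma adjusted p = 0.00856). These 6 genes passed in all 10 leave-one-out fits.

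Pcsk1, the prohormone convertase that cuts proinsulin, read 10.92, 11.05, 11.10, 11.25 and 11.33 in beta replicates 1 to 5 and 8.66, 11.07, 7.87, 9.08 and 7.59 in alpha replicates 1 to 5. Alpha replicate 2 lay inside the beta range, and the other 4 lay at least 1.8 below it. The difference was -2.27 (SE 0.47, limma adjusted p = 0.0188) with it and -2.59 without replicates 2 and 5 (limma adjusted p = 0.000221). It missed the threshold only without alpha replicate 3 among the leave-one-out fits (0.0545). Of 28 genes on the beta-cell identity list, 11 were lower in alpha, with a median of -1.11, beside 2.85% of all clusters lower. This list too was drawn up with earlier results of these data known. The 1 higher member was Rbp4, a retinol carrier that delta cells also make, at 1.04 (limma adjusted p = 0.0491). It passed in 1 of 10 leave-one-out fits. Without alpha replicates 2 and 5, 7 were lower, with a median of -0.94. The lower count was 12 without alpha replicate 2, and it was 4 without alpha replicate 3 or 5, and 5 without beta replicate 5, and 7 without alpha replicate 1 or beta replicate 1 or 4. The list mean was 9.38, 9.14, 9.31, 9.32 and 9.52 in beta replicates 1 to 5 and 8.51, 8.59, 8.11, 8.53 and 7.96 in alpha replicates 1 to 5, where alpha replicate 2 was not apart.

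In glucose handling, Pdk4 had the largest difference. It encodes a kinase that switches off pyruvate dehydrogenase and so keeps pyruvate out of the citric acid cycle. Pdk4 read 7.02, 5.08, 5.27, 5.63 and 6.59 in beta replicates 1 to 5 and 9.69, 7.53, 10.31, 10.10 and 9.95 in alpha replicates 1 to 5. All alpha arrays were above all beta arrays, alpha replicate 2 least. The difference was 3.60 (SE 0.52, limma adjusted p = 0.00406), a 12.1-fold higher level, past the threshold in every leave-one-out fit. Slc2a2, the glucose transporter of mouse beta cells, read 9.88, 9.28, 9.95, 9.92 and 10.19 in beta and 7.90, 7.85, 7.49, 8.76 and 6.93 in alpha arrays, a difference of -2.06 (SE 0.53, limma adjusted p = 0.047). Its groups did not overlap, but it passed in 0 of 10 leave-one-out fits, with a highest adjusted p of 0.109 without alpha replicate 3. Without replicates 2 and 5 its difference was -1.79 (limma adjusted p = 0.125). G6pc2, the islet glucose-6-phosphatase, read 12.05, 12.12, 11.92, 12.12 and 11.93 in beta and 10.75, 10.80, 9.92, 10.64 and 9.75 in alpha arrays, a difference of -1.65 (SE 0.35, limma adjusted p = 0.0188), and passed in 8 of 10.

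Pgk1, a glycolytic kinase, was lower, with a difference of -1.05 (limma adjusted p = 0.0315, past in 2 of 10). Pcx, the pyruvate carboxylase that refills the citric acid cycle, was lower, with a difference of -0.91 (limma adjusted p = 0.0184, past in 9 of 10) and Pfkm, a phosphofructokinase, had one of -0.75 (limma adjusted p = 0.0345, past in 3 of 10). Over the 31 measured genes of the list, 7 were lower and 2 higher, with a median of -0.12, where 0.849% of all clusters were higher and 2.85% lower. The second higher member after Pdk4 passed in 1 leave-one-out fit, so the higher count was 1 without alpha replicate 1, 3, 4 or 5 or beta replicate 1, 2, 3, 4 or 5. The lower count was 0 without alpha replicate 3, and 2 without alpha replicate 5, and 3 without alpha replicate 1 or beta replicate 1 or 5, and 4 without alpha replicate 4 or beta replicate 3 or 4. Leaving out alpha replicate 2 gave 9 lower and 3 higher. None of 23 genes known to be kept silent in beta cells passed in limma, and the median of the 23 was 0.18. At an unadjusted p under 0.05 there were 8 of them, beside 4416 of all 21789 clusters. Ldha, a lactate dehydrogenase, and Slc16a1, a lactate and pyruvate carrier, differed by 0.27 (limma adjusted p = 0.27) and 0.11 (limma adjusted p = 0.608). Oat, the ornithine aminotransferase of that list, read 6.84, 5.50, 7.55, 8.02 and 7.57 in alpha arrays against 5.30 to 5.87 in beta arrays. It missed the threshold (1.40, limma adjusted p = 0.0556) and passed without alpha replicate 2 (1.80, limma adjusted p = 0.00148).

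All 32 genes of oxidative phosphorylation had a negative difference, and the share of negative differences over all clusters is not given here. Of them 2 passed, beside 2.85% lower over all clusters. These were Cycs, the cytochrome c gene (-0.77, limma adjusted p = 0.0183), and Sdha, a subunit of succinate dehydrogenase (-0.75, limma adjusted p = 0.0255, past in 4 of 10). The list median was -0.38, beside 0.04 over all clusters and -0.08 over the 10894 left when dim ones were removed. Without alpha replicate 2 the count was 9, without replicates 2 and 5 it was 6, and without each of alpha replicates 1, 3, 4 and 5 and beta replicates 1 and 4 it was 1. The list mean was 9.95, 9.48, 9.60, 9.59 and 9.98 in beta replicates 1 to 5 and 9.22, 9.54, 9.16, 9.24 and 9.23 in alpha replicates 1 to 5. Beta replicates 1 and 5 were high among the beta arrays, and alpha replicate 2 was level with the other 3.

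Protein folding in the endoplasmic reticulum (ER) had more lower members than any other list used here. The ER is the compartment where secreted proteins such as proinsulin fold. When folding falls behind, the unfolded protein response raises chaperones and the machinery that removes misfolded proteins. Of 42 measured genes, 20 were lower in alpha and 0 higher, beside 2.85% lower over all clusters. The list median was -0.68, beside -0.08 over the 10894 clusters left when dim ones were removed. The count was again 20 without alpha replicates 2 and 5, with a median of -0.77, and 14 to 25 over the leave-one-out fits. The list mean was 9.88 to 10.10 in the beta arrays and 9.21, 9.51, 9.12, 9.21 and 9.35 in alpha replicates 1 to 5. The groups did not overlap, and alpha replicate 2 was the highest alpha array.

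Creld2, an ER chaperone-like protein released under ER stress, read 9.07, 9.36, 9.67, 9.77 and 9.98 in beta and 7.79, 8.78, 7.44, 7.76 and 8.40 in alpha arrays, a difference of -1.54 (SE 0.29, limma adjusted p = 0.0118). Hyou1, a large ER chaperone, read 10.35, 10.17, 10.64, 10.40 and 10.87 in beta and 9.10, 9.52, 8.69, 8.77 and 8.66 in alpha arrays, a difference of -1.54 (SE 0.24, limma adjusted p = 0.0056). Pdia6, a disulfide isomerase, read 10.71, 10.76, 10.89, 10.82 and 11.22 in beta and 9.57, 10.11, 9.30, 9.34 and 9.38 in alpha arrays, a difference of -1.34 (SE 0.21, limma adjusted p = 0.00615). In all 3 genes every alpha array was below every beta array, and the calls held in all 10 leave-one-out fits. So did those of Sdf2l1, a partner of ER chaperones (-1.34, limma adjusted p = 0.0118), and Edem1, which passes misfolded glycoproteins on for removal (-1.30, limma adjusted p = 0.0125). Sel1l, an adaptor of ER-associated degradation, was lower, with a difference of -1.37 (SE 0.29, limma adjusted p = 0.0194). Its alpha replicate 5 read 9.08, inside the beta range, and it passed in 8 of 10. Dnajc3, an ER co-chaperone, was lower, with a difference of -0.69 (limma adjusted p = 0.0311) and passed in 3 of 10. Hspa5, the main ER chaperone BiP, read 11.57 to 11.94 in beta and 11.41 to 11.61 in alpha arrays and did not pass (-0.26, limma adjusted p = 0.0996).

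Promoters of such genes are known to carry the ER stress element, CCAAT followed by 9 bases and CCACG, which unfolded protein response factors bind. In RefSeq promoter windows of GRCm38.p6 (250 bases before to 50 after the start of the gene), the element was looked for on both strands. It was found in 37 of 27025 genes (0.137%) and in 10 of the 34 members of the list with a window (29.4%). Of the 15 lower members with a window, 5 held it. The stretches below, each with the match in capitals, are from 2 members lower in every leave-one-out fit, Creld2 and Pdia6, then Dnajc3, and Hspa5, which held the element and did not pass. All lie on the plus strand and read 5′ to 3′, at chr15:88819496-88819645, chr12:17266439-17266588, chr14:118937782-118937931 and chr2:34771940-34772089, and the match in Creld2 is on the opposite strand. A match is a description of the letters, not of binding.
Creld2: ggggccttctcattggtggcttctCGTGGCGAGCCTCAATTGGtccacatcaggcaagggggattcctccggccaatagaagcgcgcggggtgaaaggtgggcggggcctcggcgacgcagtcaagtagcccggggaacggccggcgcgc
Pdia6: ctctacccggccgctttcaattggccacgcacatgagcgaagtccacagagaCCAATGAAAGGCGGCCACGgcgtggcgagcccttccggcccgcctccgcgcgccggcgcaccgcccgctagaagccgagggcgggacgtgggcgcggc
Dnajc3: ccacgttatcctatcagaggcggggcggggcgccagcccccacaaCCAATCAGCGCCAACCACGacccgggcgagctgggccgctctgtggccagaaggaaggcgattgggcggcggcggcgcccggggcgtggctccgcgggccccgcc
Hspa5: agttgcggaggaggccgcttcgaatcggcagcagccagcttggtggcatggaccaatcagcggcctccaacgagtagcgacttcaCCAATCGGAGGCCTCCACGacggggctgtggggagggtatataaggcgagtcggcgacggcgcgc

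Coats and cargo receptors carry folded proteins between ER and Golgi. Of 42 genes of COPI, COPII and cargo transport, 13 were lower and 0 higher, beside 2.85% lower over all clusters. The list median was -0.61, beside -0.08 over the 10894 clusters left when dim ones were removed. Without alpha replicates 2 and 5, 15 were lower, with a median of -0.62. The count was 16 without alpha replicate 2, and it was 3 without alpha replicate 3, and 4 without alpha replicate 1, and 5 without beta replicate 5, and 6 without beta replicate 1 or 4, and 8 without alpha replicate 4 or 5. Surf4, a cargo receptor, read 10.38, 10.04, 10.20, 10.28 and 10.49 in beta and 9.13, 9.66, 8.81, 9.47 and 8.21 in alpha arrays, a difference of -1.22 (SE 0.23, limma adjusted p = 0.0124). Sec23b, an inner COPII coat subunit, was lower, with a difference of -1.29 (SE 0.25, limma adjusted p = 0.0132), and both held in every leave-one-out fit. Copz2, a COPI subunit, was lower, with a difference of -1.38 (SE 0.31, limma adjusted p = 0.0267) and passed in 5 of 10.

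Of 21 genes of cholesterol and fatty acid synthesis, 3 were lower and 0 higher, beside 2.85% lower over all clusters. The list median was -0.46. Sqle, the squalene epoxidase, read 9.26, 9.35, 9.37, 9.40 and 9.64 in beta and 8.12, 8.83, 7.64, 8.18 and 7.64 in alpha arrays, a difference of -1.32 (SE 0.22, limma adjusted p = 0.00658). Acly, which makes cytosolic acetyl-CoA, and Fdps, an enzyme of the sterol pathway, were lower, with differences of -0.85 (limma adjusted p = 0.02, past in 6 of 10) and -0.72 (limma adjusted p = 0.0306, past in 4 of 10). The count was 1 without alpha replicate 3 or 4 or beta replicate 5, and 6 without alpha replicate 2.

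**Figure D4:**
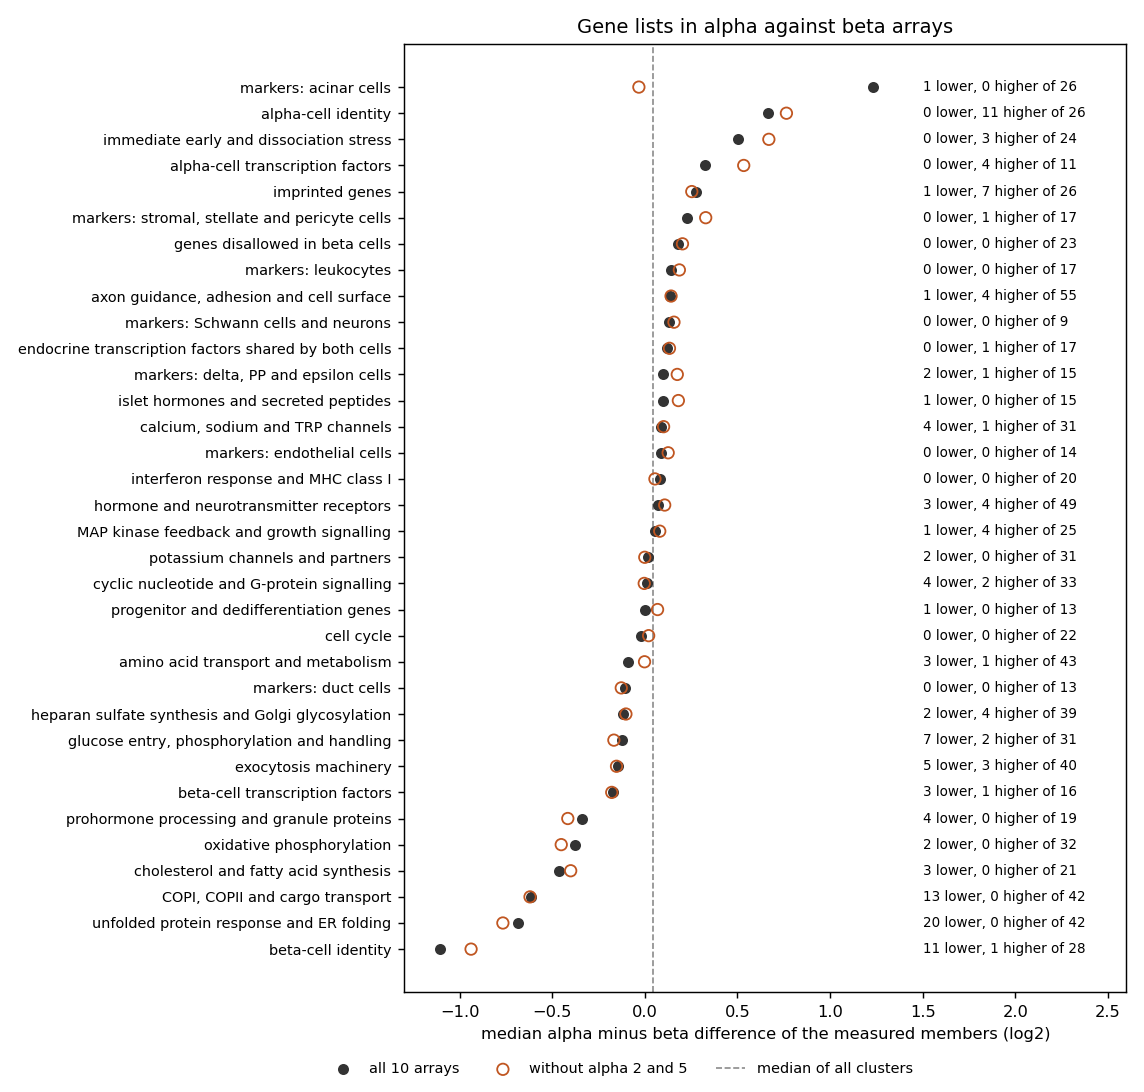
Median alpha minus beta difference (log2) of the measured members of each gene list with all 10 arrays (filled) and without alpha 2 and 5 (open), with the members lower and higher past the threshold of those measured. The dashed line is the median of all clusters, 0.04. The beta-cell identity, ER folding and COPI and COPII lists lie farthest to the left, and the acinar list moves from 1.23 to -0.03.

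Granule and release genes split. The 19 genes of prohormone processing and granule content had a median of -0.34. Of them 4 were lower and 0 higher, beside 2.85% lower over all clusters. Besides Pcsk1 and Dnajc3 these were Chga, the granule protein chromogranin A (-0.49, limma adjusted p = 0.0334, past in 2 of 10), and Atp6ap2, a partner of the proton pump that acidifies granules (-0.81, limma adjusted p = 0.0231, past in 6 of 10). Chga read 12.06, 12.58, 11.98, 12.06 and 11.96 in alpha arrays, with alpha replicate 2 alone inside the beta range of 12.48 to 12.73. The count was 1 without alpha replicate 3, 4 or 5, and 2 without alpha replicate 1 or beta replicate 1, 3, 4 or 5, and 8 without alpha replicate 2.

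Of 40 genes of the exocytosis machinery, 5 were lower and 3 higher, where 2.85% of all clusters were lower and 0.849% higher. The list median was -0.14. The family of Rab3 GTPases, which tether granules, went both ways. Rab3c was higher in alpha, with 7.21, 5.98, 6.72, 7.34 and 7.44 in alpha and 5.27, 5.10, 4.79, 5.30 and 4.22 in beta arrays. Rab3d was lower, with 6.42, 7.01, 6.58, 6.44 and 7.19 in alpha and 8.06, 7.97, 7.90, 7.78 and 9.11 in beta arrays (-1.44, SE 0.25, limma adjusted p = 0.00856). Both pairs of groups were free of overlap, and both calls held in every leave-one-out fit. The vesicle proteins Syp, or synaptophysin, and Syt13, a synaptotagmin, were lower, with differences of -0.84 (limma adjusted p = 0.00821) and -0.85 (limma adjusted p = 0.00847). Syt16, another synaptotagmin, was higher by 0.83 (limma adjusted p = 0.0334) and passed in 2 of 10. The lower count of this list was 3 without alpha replicate 3, and 7 without alpha replicate 2.

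Among channels, Scnn1b and Scnn1g, which encode subunits of the epithelial sodium channel, were both lower. Scnn1b read 9.45, 8.31, 8.67, 8.68 and 9.29 in beta and 7.01, 7.38, 6.58, 7.27 and 6.89 in alpha arrays, a difference of -1.86 (SE 0.27, limma adjusted p = 0.00406). Scnn1g differed by -0.73 (SE 0.10, limma adjusted p = 0.00331). Atp2a3 and Atp2a2, pumps that load calcium into the ER, were lower, with differences of -1.02 (limma adjusted p = 0.00618) and -0.56 (limma adjusted p = 0.0345). The Atp2a3 call held in all 10 leave-one-out fits and the Atp2a2 call in 1. Cacng4, a channel and glutamate receptor partner, was higher by 0.44 (limma adjusted p = 0.0287), in 3 of 10. In all, 4 of 31 calcium, sodium and TRP channel genes were lower and 1 higher, beside 2.85% and 0.849% of all clusters. Without alpha replicate 2 there were 5 lower, and the higher count was 0 in each leave-one-out fit where Cacng4 did not pass. Of 31 potassium channel genes and partners, 2 were lower, Kcnip1 and Kcnk16, an islet background channel (-0.59, limma adjusted p = 0.0315, 3 of 10), and 0 higher, where 2.85% of all clusters were lower and 0.849% higher. That lower count was 1 without alpha replicate 1, 3, 4 or 5 or beta replicate 1 or 4. With alpha replicate 2 left out, 2 were higher, Kcnj3 and Kcnk3, an inward rectifier and a background channel, named after their values were seen, with differences of 1.18 (limma adjusted p = 0.0231) and 0.79 (limma adjusted p = 0.0184).

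Of 49 receptors of hormones and transmitters, 4 were higher and 3 lower, beside 0.849% and 2.85% of all clusters. Gria3 and Gria2, subunits of the AMPA glutamate receptor, were higher. Gria3 read 7.51, 8.05, 8.34, 7.61 and 8.10 in beta and 9.05, 9.56, 9.98, 10.08 and 9.90 in alpha arrays, a difference of 1.80 (SE 0.28, limma adjusted p = 0.00578), in all 10 leave-one-out fits. Gria2 differed by 1.60 (SE 0.36, limma adjusted p = 0.0264) and passed in 6, with beta replicates 1 and 5 low among the beta arrays at 7.65 and 6.92. Ffar4, a receptor for long-chain fatty acids, read 4.93, 4.94, 4.83, 5.01 and 4.91 in beta and 6.48, 5.53, 6.69, 6.25 and 6.73 in alpha arrays, a difference of 1.42 (SE 0.30, limma adjusted p = 0.0199, past in 8 of 10). Avpr1b, a vasopressin receptor, was higher by 0.68 (SE 0.13, limma adjusted p = 0.0135) in all 10. Sstr3, a somatostatin receptor, Casr, the calcium-sensing receptor, and Igf1r were lower, with differences of -0.57 (limma adjusted p = 0.0183, past in 9 of 10), -0.60 (limma adjusted p = 0.0287, past in 4 of 10) and -0.76 (limma adjusted p = 0.0409, past in 3 of 10). The lower count was 0 without alpha replicate 3, and 1 without alpha replicate 5 or beta replicate 2, 3 or 5, and 5 without alpha replicate 2, and the higher count was 2 without alpha replicate 3 or 5.

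On the growth signalling list, 4 of 25 genes were higher and 1 lower, beside 0.849% and 2.85% of all clusters. Kit, the receptor of stem cell factor, was among the higher ones. It read 6.44, 5.47, 5.80, 5.86 and 6.03 in beta and 7.78, 6.92, 7.18, 7.27 and 7.42 in alpha arrays, a difference of 1.39 (SE 0.29, limma adjusted p = 0.0183) without overlap. The other higher members were Wnk3, Etv1 and Wnk2, a kinase related to Wnk3 (0.46, limma adjusted p = 0.0408, 1 of 10), and Etv5 was the lower one. Leaving out alpha replicate 2 gave 6 higher. In cyclic nucleotide and G-protein signalling, 4 of 33 genes were lower and 2 higher, beside 2.85% and 0.849% of all clusters. Pde5a, which breaks down cyclic GMP, read 8.98, 9.95, 9.43, 9.92 and 8.09 in beta and 6.96, 7.91, 6.17, 7.06 and 6.94 in alpha arrays, a difference of -2.26 (SE 0.48, limma adjusted p = 0.0213, past in 8 of 10). Rgs5, which is counted below as a pericyte marker too, was higher by 1.07 (limma adjusted p = 0.039), in 2 of 10. The other higher member was Prkg1, a kinase that cyclic GMP switches on (0.83, limma adjusted p = 0.0381, 1 of 10). Gng12 and Gng4, G-protein gamma subunits, and Adcy9, an adenylyl cyclase, were lower, with differences of -1.31 (limma adjusted p = 0.039, past in 2 of 10), -0.56 (limma adjusted p = 0.0436, past in 2 of 10) and -0.59 (limma adjusted p = 0.0179, past in 9 of 10). The lower count was 0 without alpha replicate 3, and 1 without beta replicate 4, and 2 without alpha replicate 1, 4 or 5 or beta replicate 3 or 5, and 7 without alpha replicate 2. The higher count was 0 without alpha replicate 3 or 5 or beta replicate 1, 2, 3, 4 or 5, and 1 without alpha replicate 1 or 4, and 4 without alpha replicate 2.

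Few amino acid genes passed, in both directions. Slc7a2, a carrier of arginine and other cationic amino acids, read 8.46, 9.12, 9.26, 9.30 and 8.48 in beta and 10.34, 9.43, 10.71, 10.48 and 10.30 in alpha arrays. Its groups did not overlap, and the difference was 1.32 (SE 0.22, limma adjusted p = 0.00772). Slc7a5, a carrier of large neutral amino acids, read 9.15 to 9.46 in beta arrays and at most 8.75 in alpha arrays, a difference of -1.01 (SE 0.17, limma adjusted p = 0.00815). Asns, the asparagine synthetase, was lower, with a difference of -1.11 (SE 0.20, limma adjusted p = 0.00956), and these 3 calls held in all 10 leave-one-out fits. Got2, a mitochondrial aspartate aminotransferase, was lower, with a difference of -0.76 (limma adjusted p = 0.0475), in 3 of 10. Slc38a5, a glutamine carrier, did not pass (0.70, limma adjusted p = 0.275). In all 1 of 43 genes was higher and 3 were lower, with a median of -0.09, where 0.849% of all clusters were higher and 2.85% lower. Without alpha replicate 2, 2 were higher and 5 lower.

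At the cell surface, Dpp10, a partner of voltage-gated potassium channels, and Ptprk, a receptor phosphatase, were higher. Dpp10 read 8.94, 5.82, 8.65, 9.08 and 8.62 in alpha and 6.13, 5.74, 6.09, 6.57 and 5.22 in beta arrays, and alpha replicate 2 lay inside the beta range. Its difference of 2.27 (SE 0.51, limma adjusted p = 0.0264) passed in 4 of 10 leave-one-out fits. Ptprk differed by 2.10 (SE 0.54, limma adjusted p = 0.0443, past in 1 of 10), and of those fits it passed only the one without alpha replicate 2 (limma adjusted p = 0.000208). Gjd2, the gap junction protein that couples mouse beta cells, read 10.76, 10.10, 10.18, 10.12 and 10.67 in beta and 8.81, 9.67, 7.47, 8.86 and 8.27 in alpha arrays, a difference of -1.75 (SE 0.39, limma adjusted p = 0.0251, past in 6 of 10). Of 55 guidance, adhesion and surface genes, 4 were higher and 1 was lower, where 0.849% of all clusters were higher and 2.85% lower. The higher count was 6 without alpha replicate 2, and it was 1 without alpha replicate 1, 3 or 4 or beta replicate 1 or 5, and 2 without alpha replicate 5 or beta replicate 4. For the lower members it was 0 without alpha replicate 3 or 5 or beta replicate 1 or 5, and 5 without alpha replicate 2.

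Of 39 genes of heparan sulfate and Golgi glycosylation, 4 were higher and 2 lower, beside 0.849% and 2.85% of all clusters. Ndst4 and Galnt13 led the higher ones. St6galnac5, a sialyltransferase, read 7.10, 6.65, 6.82, 6.68 and 6.92 in beta and 8.23, 7.85, 7.73, 8.16 and 7.52 in alpha arrays, a difference of 1.06 (SE 0.14, limma adjusted p = 0.00331). Gpc6, a heparan sulfate core protein, was higher by 0.50 (limma adjusted p = 0.0214, past in 8 of 10). Chst11, a chondroitin sulfotransferase, read 7.99, 7.37, 7.04, 7.44 and 6.57 in beta and 5.98, 5.97, 6.06, 6.34 and 6.06 in alpha arrays, a difference of -1.20 (SE 0.24, limma adjusted p = 0.0175). St8sia1, the ganglioside GD3 synthase, was lower, with a difference of -0.86 (limma adjusted p = 0.0231), in 3 of 10. Of the lower members there were 1 without alpha replicate 3, 4 or 5 or beta replicate 1, 3, 4 or 5, and 5 without alpha replicate 2.

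Of 26 imprinted genes, expressed from 1 parental copy, 7 were higher and 1 lower, beside 0.849% and 2.85% of all clusters. The list median was 0.28. Peg10, Sgce and Asb4 are neighbours in 1 imprinted domain. Sgce, a sarcoglycan, read 6.20, 5.60, 5.96, 5.81 and 5.68 in beta and 8.55, 5.96, 8.17, 8.42 and 8.10 in alpha arrays, where alpha replicate 2 lay inside the beta range, and it differed by 1.99 (SE 0.41, limma adjusted p = 0.0184, past in 9 of 10). Asb4, an adaptor of ubiquitin ligases, was higher by 1.03 (SE 0.22, limma adjusted p = 0.0199, past in 6 of 10). Zim1, a zinc-finger gene, read 6.87, 7.69, 8.29, 8.05 and 7.25 in beta and 8.27, 9.31, 10.06, 10.08 and 9.14 in alpha arrays, a difference of 1.74 (SE 0.33, limma adjusted p = 0.0118). Alpha replicate 2 was high there, and alpha replicate 1, at 8.27, was just under beta replicate 3. Grb10, an adaptor of the insulin receptor, and Nap1l5 were higher by 1.04 (limma adjusted p = 0.0345, past in 2 of 10) and 0.86 (limma adjusted p = 0.0276, past in 4 of 10). The count was 1 without alpha replicate 3, and 2 without alpha replicate 4 or beta replicate 4, and 3 without alpha replicate 5 or beta replicate 1 or 5, and without alpha replicates 2 and 5 it was 7. The lower members were 2 without alpha replicate 2.

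Immediate early genes are switched on within minutes by many stimuli, cell dissociation among them. Of 24, 3 were higher in alpha and 0 lower, beside 0.849% and 2.85% of all clusters. The list median was 0.51. Atf3, a stress factor, read 8.28, 8.07, 8.25, 7.46 and 7.97 in beta and 10.86, 8.15, 10.97, 11.17 and 10.36 in alpha arrays, a difference of 2.30 (SE 0.46, limma adjusted p = 0.0168, past in 9 of 10). Klf4 and Nr4a2, other inducible factors, differed by 1.38 (SE 0.28, limma adjusted p = 0.0165) and 1.70 (SE 0.32, limma adjusted p = 0.0132). Alpha replicate 2 was the lowest alpha array for all 3 genes and inside the beta range for Atf3 and Klf4. Without it, and also without replicates 2 and 5, 8 were higher. The cyclic AMP response element TGACGTCA, which reads the same on both strands, was looked for in the promoter windows described above. It was found in 549 of 27025 genes (2.03%) and in 2 of the 20 members with a window, and in 0 of the 3 higher ones. The list mean was 7.86, 7.57, 7.89, 7.61 and 7.85 in beta replicates 1 to 5 and 8.42, 7.76, 8.59, 8.60 and 8.26 in alpha replicates 1 to 5. The part of the sort or of cell dissociation in these differences was not tested.

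Few markers of other cell types passed in the full fit. With all 10 arrays, none of 13 duct, 14 endothelial, 17 leukocyte, 9 Schwann cell or neuron and 2 red blood cell markers passed in limma. At an unadjusted p under 0.05 there were 4, 0, 3, 0 and 0, beside 4416 of all 21789 clusters. Without alpha replicate 2 the duct list held 2 lower, and without alpha replicate 4 the leukocyte list held 1 higher. Of 17 stromal, stellate and pericyte markers 1 was higher, beside 0.849% of all clusters. It was Rgs5, a pericyte marker (1.07, limma adjusted p = 0.039, 2 of 10). Without alpha replicate 2 there were 3, beside 1.91% of all clusters, and without replicates 2 and 5 there were 4, beside 1.64%. These 4 were Sparc, Rgs5, Vim and Lum, named after their values were seen. Sparc differed by 1.20 with all arrays (limma adjusted p = 0.0833) and by 1.80 without replicates 2 and 5 (limma adjusted p = 0.00145). The mean of the 17 markers was 5.50, 5.41, 5.33, 5.35 and 5.53 in beta replicates 1 to 5. In alpha replicates 1 to 5 it was 5.95, 5.34, 5.92, 5.63 and 5.68, highest in replicates 1 and 3. The part of stromal cells in the higher genes was not tested.

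Of 26 acinar markers, 25 had a positive difference, 0 of them passed in limma, and the median was 1.23, or -0.03 without alpha replicates 2 and 5. The 1 that passed, Bhlha15, a factor of secretory cells that islet cells also express, was lower. It read 7.50, 7.61, 7.67, 7.77 and 8.39 in beta and 6.26, 6.85, 6.76, 6.20 and 7.06 in alpha arrays, a difference of -1.16 (SE 0.19, limma adjusted p = 0.00702). Of 15 delta, PP and epsilon cell markers, Rbp4 was higher and Sstr3 and Casr lower, where 0.849% of all clusters were higher and 2.85% lower. That lower count was 0 without alpha replicate 3, and 1 without alpha replicate 4 or 5 or beta replicate 2, 3 or 5. Of 13 progenitor and dedifferentiation genes 1 was lower, Serpina7, a thyroxine carrier (-2.39, SE 0.63, limma adjusted p = 0.0493), in 1 of 10 leave-one-out fits. None of 20 interferon response genes and none of 22 cell cycle genes passed in limma, with medians of 0.08 and -0.02. At an unadjusted p under 0.05 there were 2 and 1, beside 4416 of all 21789 clusters. Among the interferon genes 1 was lower without alpha replicate 2.

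**Figure D5:**
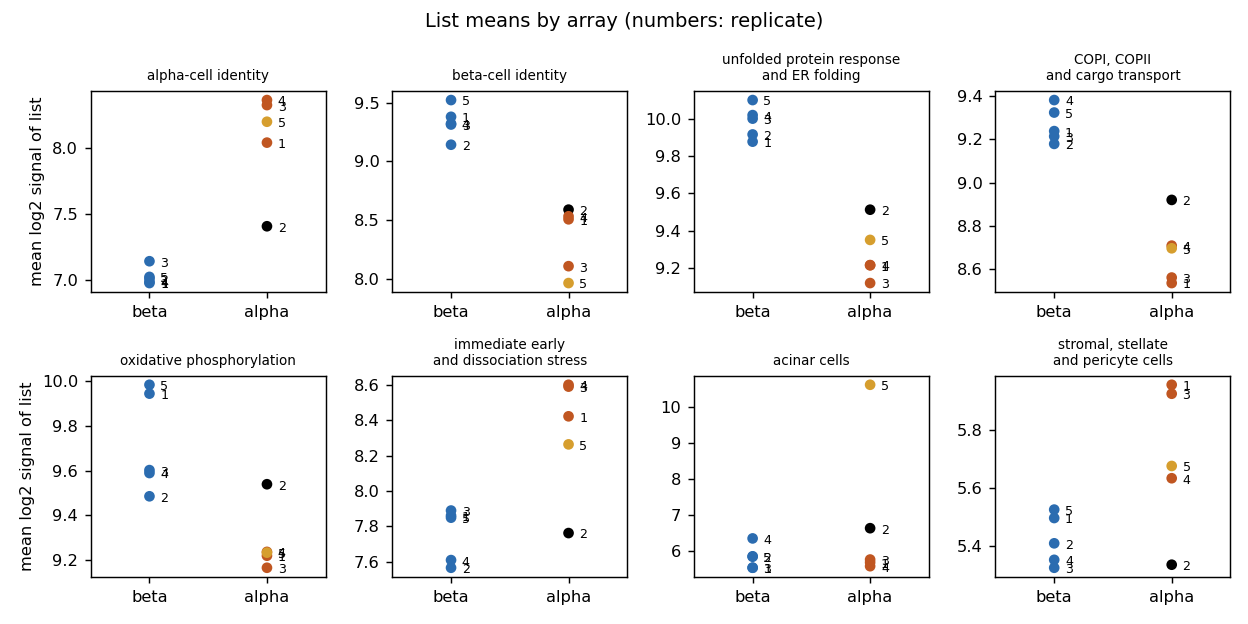
Mean log2 signal of 8 gene lists in each array (blue, beta; orange, alpha 1, 3 and 4; black, the array labelled alpha 2; yellow, alpha 5; the digits are replicate numbers; each panel has its own axis). The lists were drawn up with earlier results of these data known. The alpha-cell and beta-cell identity lists and the ER folding and COPI and COPII lists separate the groups. The acinar list sets alpha 5 apart at 10.61. The array labelled alpha 2 lies with the beta arrays on the immediate early, oxidative phosphorylation and stromal lists.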

How the data were processed

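The values are log2 signals per transcript cluster as the authors deposited them, and the log base is read from their range of 2.11 to 13.45. Per the submitters' processing notes, Affymetrix Expression Console was used. The sources used here do not give its version, the summarization, the background correction or a genome build. Of 35556 clusters, 21789 have 1 gene symbol (19938 genes), 1621 several and 12146 none. Gene IDs of 21698 were found in the RefSeq table of GRCm38.p6, and 0 symbols changed. For a gene with several clusters the one with the highest mean over 15 arrays is given.

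Group means were fitted over all 15 arrays with limma 3.58.1 (lmFit, eBayes) in R 4.3.3, with no block. Benjamini-Hochberg adjustment ran over 21789 clusters. The procedure was tested on simulated data with independent normal noise in each value, which does not cover arrays that stand apart. The text names the 12 largest rises and 12 largest falls without overlap (no Gm or Rik symbols), up to 6 members of each of 36 lists past the threshold or 2 where none passed, and 28 islet genes whatever their values. The members, lists and rule were chosen with earlier results of these data known. Alternatives left out each array, alpha 2 and 5 together, or the Pdx1-deficient arrays, or changed the block, scaling, filter on dim clusters, moderation, clusters per gene, array weights or a sex term. Precision is limited by 5 arrays per group.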

Additional observations from a re-analysis of the deposited data

Results flagged for a closer look

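In 264 groups of 5 arrays, those of the named genes, 26 values lay far from the other 4 arrays of their group by Dixon's test, which flags about 1 group in 20 by chance. The array labelled alpha replicate 2 gave 13 of them. It read low beside the other alpha arrays for Ndst4 (6.50), Pdk4 (7.53), Mctp2 (4.68), Wnk3 (8.68), Atf3 (8.15), Dpp10 (5.82), Ptprk (6.20), Sgce (5.96), Etv1 (9.21) and Irx1 (5.61). It read high for Chga (12.58), Sdha (9.70) and Acly (9.90). In each of these genes it lay on the beta side of its group.

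Alpha replicate 5 stood low for Myt1 (7.85), Cldn7 (7.70) and Kcnip1 (5.37) and high for Kdr (5.26). Alpha replicate 4 stood high for Alas2 (6.66) and Chst11 (6.34). Beta replicate 1 stood high for Peg10 (6.79), Xist (9.23) and Ptprk (7.18) and low for Eif2s3y (3.41), a Y-linked gene. Single values of the other beta arrays were Usp18 in replicate 2 (7.15, low), Ldha in replicate 3 (5.34, low) and Rab3d in replicate 5 (9.11, high).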

How the results depend on the processing

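All 132 named clusters kept their direction in every setting that tested them, though settings such as changed moderation cannot alter the difference itself. Of the 100 past the threshold, 87 passed without alpha replicates 2 and 5 and 45 in all 10 leave-one-out fits. Against 806 clusters, 185 higher and 621 lower, the leave-one-out fits gave 277 to 1436, 56 to 416 higher and 221 to 1020 lower. Other counts were 481 (290 lower) after a further quantile normalization, 1389 (381 higher, 1008 lower) with array weights and 449 (85 higher, 364 lower) with a sex term. The setting without alpha replicates 2 and 5 gave 1116, 358 higher. Leaving out 1 further array from it gave 440 to 915, 153 to 285 higher and 287 to 655 lower. There, removing dim clusters gave 215 higher, and quantile normalization gave 396 lower in place of 758. The causes were not tested.

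After the data were seen, 2 settings were added. Without alpha replicate 2 and Pdx1-deficient replicate 1, whose Pdx1 lay inside the beta range at 9.12, 1449 passed (398 higher, 1051 lower). With only the alpha and beta arrays and without alpha replicate 2, 1562 passed (421 higher, 1141 lower).

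The titles number the replicates in both groups, with nothing to say that the numbers pair them. Deviations of same-numbered arrays correlated at 0.239, 0.105, 0.0346, 0.159 and 0.0059, so a pairing was not shown. With the replicate number as a block 617 clusters passed, and 669 without alpha replicates 2 and 5 (174 higher, 495 lower).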

Other observations

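Among the clusters with the smallest adjusted p were genes that no list held, and they are named here after their values were seen. Ntrk2, the receptor of brain-derived neurotrophic factor, read 6.97, 7.24, 7.37, 7.04 and 7.26 in beta replicates 1 to 5 and 5.76, 6.38, 5.52, 5.68 and 5.81 in alpha replicates 1 to 5, a difference of -1.35 (SE 0.14, limma adjusted p = 0.000873, and 9e-05 without alpha replicates 2 and 5). Its alpha arrays, the one labelled replicate 2 included, all lay below the beta arrays. Pi4k2a, a lipid kinase of Golgi and endosomes, was lower in alpha, with a difference of -1.20 (SE 0.15, limma adjusted p = 0.00167, and 0.00256 without alpha replicates 2 and 5). Rbms3, an RNA-binding protein, read 5.83, 5.99, 6.25, 6.02 and 5.95 in beta replicates 1 to 5 and 7.29, 6.85, 7.28, 7.73 and 7.08 in alpha replicates 1 to 5, a difference of 1.23 (SE 0.15, limma adjusted p = 0.00167, and 0.00026 without alpha replicates 2 and 5). Each passed in all 10 leave-one-out fits.

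The 5 beta arrays were not uniform. Beta replicates 2 to 4 correlated with each other at 0.987 to 0.989 and with beta replicates 1 and 5 at 0.963 to 0.976, while replicates 1 and 5 correlated at 0.981. Gria2, Smarca1, Wnk3 and Dbpht2 were lower in beta replicates 1 and 5 than in replicates 2 to 4, with 7.65 and 6.92 against 8.98 to 9.11 for Gria2 and 9.15 and 9.01 against 9.97 to 10.61 for Dbpht2. The oxidative phosphorylation list was higher there, with means of 9.95 and 9.98 against 9.48 to 9.60. These genes and arrays were chosen after their values were seen, and no test was made.

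The array labelled alpha replicate 2 correlated with beta replicates 2 to 4 at 0.981 to 0.984 and with beta replicates 1 and 5 at 0.956 to 0.968. In the microRNA host gene Mir17hg, chosen after its values were seen, alpha cells read 4.96 and beta cells 4.40 (limma adjusted p = 0.00768). Myo18b was the 1 gene whose clusters past the threshold went opposite ways.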
